A study of Homo sapiens with 4 samples.

Results

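The genes described here were 46 genes of the human cell cycle and of DNA replication. They encode cyclins, their kinases and inhibitors, helicase subunits, replication enzymes, mitotic proteins and regulators such as MYC, E2F1 and RB1. The list was chosen by name and not by a threshold on the signals, with earlier results of these data known. Of the 46 genes, 45 had a probe set annotated to that gene alone, among 19775 genes in the whole series, and each gene was read from the brightest of its probe sets. CDKN2C was not analysed here. The cells were 2 sublines of THP-1, a human monoblastoid leukemia cell line: Siglec-14/THP-1, which expresses the bacteria-binding myeloid receptor Siglec-14, and Siglec-5/THP-1, which expresses its paired relative Siglec-5 and stands for cells without Siglec-14. Each subline was kept for 6 h in serum-free macrophage medium either alone or with a heat-killed respiratory bacterium, nontypeable Haemophilus influenzae (NTHi) strain 2019, at 100 bacteria per cell, and 250 ng of RNA from each of the 4 cultures went to 1 expression array. The samples are called Siglec-14,NTHi[-], Siglec-14,NTHi[+], Siglec-5,NTHi[-] and Siglec-5,NTHi[+], and signals are given in that order throughout. There was 1 array per condition, so no value has a replicate error. Siglec-14 against Siglec-5 and any other difference between the sublines cannot be told apart, and the sources used here do not say whether a subline is 1 clone.

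The cell cycle copies the genome and then divides the cell. In G1, D cyclins with CDK4 and CDK6 and E cyclins with CDK2 phosphorylate the retinoblastoma protein RB1, which frees E2F factors to switch on the genes of S phase, while MYC drives growth and CDK inhibitors such as p21 (CDKN1A) and p27 (CDKN1B) hold the kinases back. CDC6 and CDT1 load the MCM helicase onto origins in G1, replication enzymes copy the DNA in S phase, and cyclin B with CDK1 and the Aurora and Polo kinases then drive mitosis. Monocytic leukemia lines such as THP-1 divide continuously in culture and leave the cycle when they mature toward macrophages.

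The 4 arrays had summed signals between 12735500 and 14047100 and median signals between 15.1 and 16.5, and the 3′ to 5′ control ratios lay between 0.974 and 1.03 for GAPDH and between 1.19 and 1.21 for ACTB. Signals are linear, in arbitrary units, and compare 1 gene between arrays but not 1 gene with another. A gene entered the counts when the mean of its 4 signals reached 16.0, the median of all signals and here called the floor, which 12282 genes did, and 7861 of these reached the 75th percentile of all signals, 105. Of 8 measured myeloid genes, 7 were at or above the floor on each array, with LYZ, PTPRC, CEBPA, MPO and ITGAM bright, SPI1 and CSF1R dim and FCGR1A below it. CD14, a marker of mature monocytes, lay below it on all 4, and the 7 measured genes of the monocyte to macrophage maturation list summed to 143, 155, 96.8 and 109. The lists for T and NK, B, erythroid and epithelial cells had 1 to 3 genes at or above the floor per array. NKG7, of the T and NK list, was bright at 292, 363, 240 and 247. The list for fibroblasts and endothelium had 2 or 3. Of these, PECAM1 was bright at 2307, 2376, 771 and 627, and COL1A1 had 266, 257, 141 and 132. The labels could not be checked by the introduced genes, since no probe set was read for SIGLEC14 and the SIGLEC5 probe set stayed near the floor at 21.3, 19.5, 4.13 and 21.6.

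Nearly the whole list read above the floor. Of the 45 genes, 44 reached the floor and 42 the 75th percentile, with mean signals from 65.6 to 5948 and a median of 1339. Cyclin D1 (CCND1) was the gene that did not, with signals of 18.4, 24.8, 14.4 and 1.86, so that it entered no count. E2F1 and PLK1 were dim, with mean signals of 65.6 and 87.1. Among the D cyclins, CCND3 was even across the arrays at 1499, 1390, 1424 and 1404. The proliferation antigen MKI67 had signals of 392, 484, 337 and 335, and the DNA topoisomerase of dividing cells, TOP2A, 2647, 3030, 3038 and 2699. The mitotic kinase CDK1 had 4033, 4490, 4658 and 4305. In all 4 comparisons of arrays made here, 35 of 44 genes differed by less than 1.5-fold. The 9 others were CCND2, CDC25A, E2F1, MYC, CDKN1A, CDT1, MCM2, MCM5 and MCM7. Per comparison and direction, 3.81% to 13% of all genes passed that fold, and 0.293% to 6.83% of genes above the 75th percentile. The share past it in any of the 4 comparisons was not computed for all genes. The Siglec-5,NTHi[-] array held the highest of the 4 signals for 27 of the 44 genes (61.4%), against 42.8% of all genes that reached the floor, and the Siglec-14,NTHi[-] array held the lowest for 24 (54.5%, against 35.7%).

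**Figure D1:**
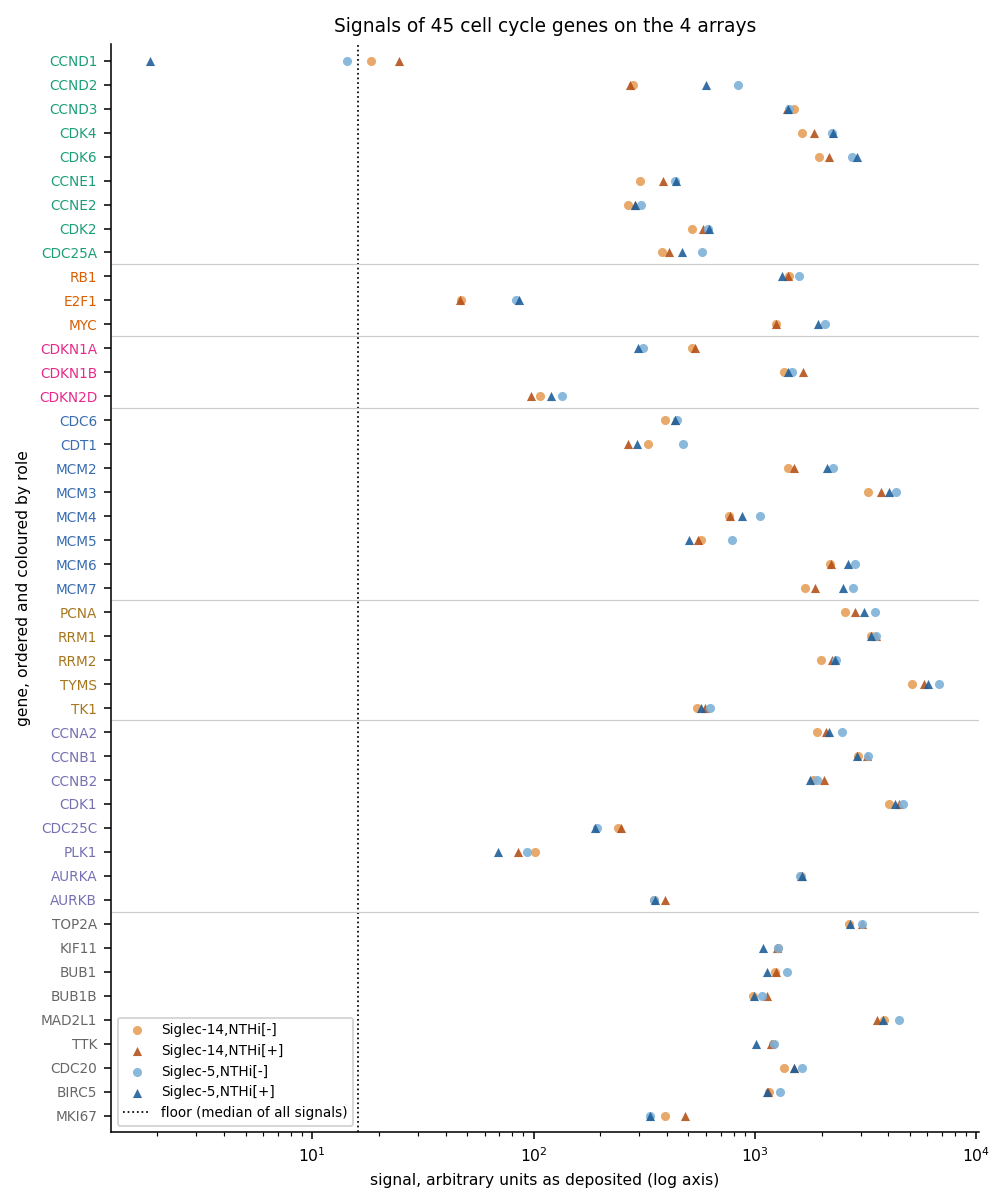
Signal of each of the 45 genes on the 4 arrays (horizontal log axis, arbitrary units as deposited), with genes in rows ordered and coloured by role, circles for cultures without NTHi and triangles for those with it; each point is 1 array. Most rows are narrow, CCND2, E2F1 and MYC lie farther right in Siglec-5/THP-1, CDKN1A lies farther right in Siglec-14/THP-1, and CCND1 straddles the floor of 16.0 (dotted).

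The first question was whether 6 h with NTHi altered these genes in either line. With NTHi, 42 of 44 genes stayed within 1.5-fold in both lines. In Siglec-14/THP-1, 0 genes were at least 1.5-fold higher and 0 lower, where the shares of all genes past that fold were 5.77% higher and 3.81% lower, and 1.95% and 0.293% of genes above the 75th percentile. In Siglec-5/THP-1, 0 were higher, against 4.32% of all genes and 1.27% of the brighter ones, and 2 were lower, CDT1 and MCM5, against 6.71% and 1.02%. After scaling to a common median or trimmed mean CDT1 alone was past the fold, and after quantile normalization neither was. No gene passed 1.5-fold in both lines in one direction, which 1.45% of all genes did upward and 0.985% downward. The median log2 ratio of the 44 genes was 0.10 in Siglec-14/THP-1 and -0.12 in Siglec-5/THP-1, and the medians of all genes were 0.08 and -0.11, so that the list lay where the whole array lay. In bulk RNA, fewer cycling cells and less RNA per cell cannot be told apart.

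CDT1, the licensing factor that brings the MCM helicase to origins and is removed once S phase begins, had signals of 329, 267, 471 and 292. It was lower with NTHi in both lines, by 1.23-fold in Siglec-14/THP-1 and by 1.61-fold in Siglec-5/THP-1. Its second probe set, at 133, 123, 194 and 157, gave log2 ratios of -0.11 and -0.30, smaller than the -0.30 and -0.69 of the first. MCM5, a helicase subunit, had signals of 570, 553, 788 and 502, with a log2 ratio of -0.65 in Siglec-5/THP-1 and -0.04 in Siglec-14/THP-1. The high value of MCM5 was that of Siglec-5,NTHi[-] alone, and its second probe set gave -0.15 in that line. PCNA, the sliding clamp of the replication fork, had 2555, 2833, 3494 and 3113, and its log2 ratios with NTHi were 0.15 and -0.17. MYC hardly differed, at 1250 and 1249 in Siglec-14/THP-1 and 2065 and 1921 in Siglec-5/THP-1. Cyclin E1 (CCNE1), which activates CDK2 at the start of S phase, gave the highest log2 ratio in Siglec-14/THP-1, 0.34, from 303 to 384.

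**Figure D2:**
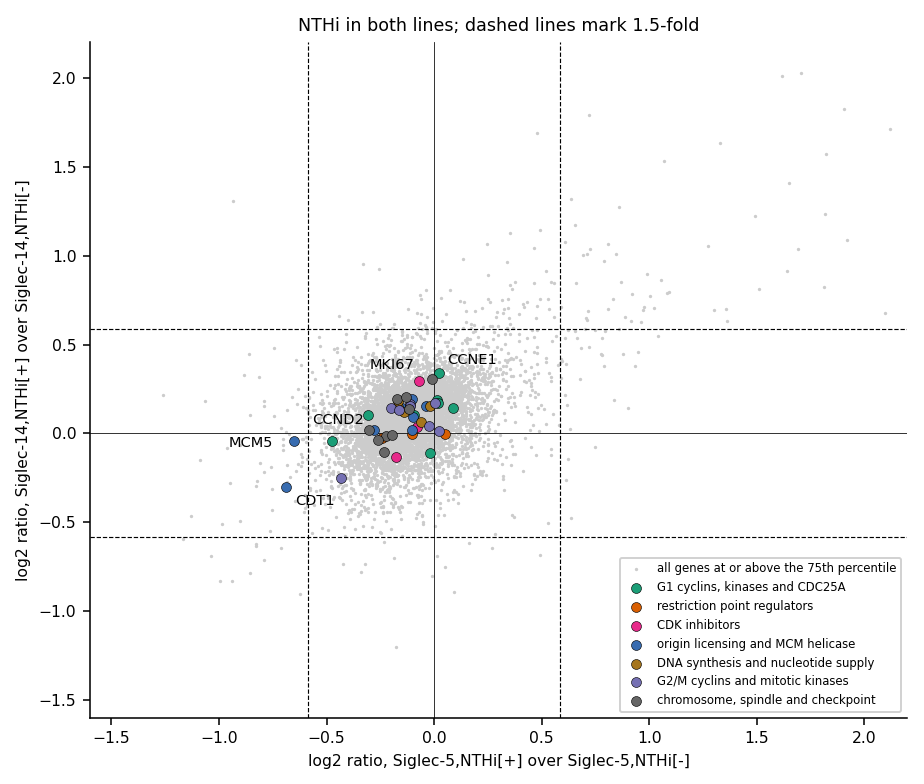
Log2 ratio of signals with over without NTHi in Siglec-5/THP-1 (horizontal) and Siglec-14/THP-1 (vertical), which share no array; coloured points are the 44 genes by role, grey points the 7861 genes above the 75th percentile (17 of them outside the axes), and dashed lines mark 1.5-fold. The coloured points sit inside the grey cloud, and CDT1 and MCM5 are the ones left of the dashed line.

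The only test the design allowed treated the 2 lines as 2 observations of NTHi and the 2 conditions as 2 observations of the line difference, in an additive limma fit with 1 residual degree of freedom. Its p-values rest on the variance that the fit assigns to a signal level across all probe sets, not on replicate cultures. For the NTHi term, 0 of 44 genes passed an adjusted p of 0.05, where 1.16% of all genes passed upward and 0.358% downward. At an unadjusted p under 0.05 were 2 of 44, beside 6.84% of all genes. The lowest adjusted p was that of CDT1, 0.126, with a log2 difference of -0.50 (SE 0.16). CDT1 passed this term after the arrays were scaled to a common median or a common trimmed mean. Under these scalings 0.554% and 0.872% of all genes passed it as lower.

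The second question was how the lines differed. Without NTHi, 6 genes were at least 1.5-fold lower in Siglec-14/THP-1 than in Siglec-5/THP-1 (CCND2, CDC25A, E2F1, MYC, MCM2 and MCM7), and 1 was higher (CDKN1A). The shares of all genes in that comparison were 9.62% lower and 9.09% higher, and 6.83% and 3.97% of the brighter genes. After trimmed-mean scaling or quantile normalization, 2 of the 6 lower genes stayed past the fold, CCND2 and E2F1. With NTHi, 3 genes were lower (CCND2, E2F1 and MYC) and CDKN1A was again higher, beside 5.76% and 13% of all genes and 2.96% and 6.54% of the brighter ones. The same 3 and the same 1 passed in both conditions, which rest on separate arrays, beside 2.69% lower and 5.8% higher of all genes. The list as a whole did not stand far from the array: its median log2 ratio of Siglec-14/THP-1 over Siglec-5/THP-1 was -0.21 without and -0.01 with NTHi, and the medians of all genes were -0.13 and 0.06. The medians of the brighter genes were -0.17 and 0.04. Regardless of size, 22 of 44 genes were lower in Siglec-14/THP-1 in both conditions and 5 were higher, while 36.1% of all genes were lower and 28.7% higher.

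**Figure D3:**
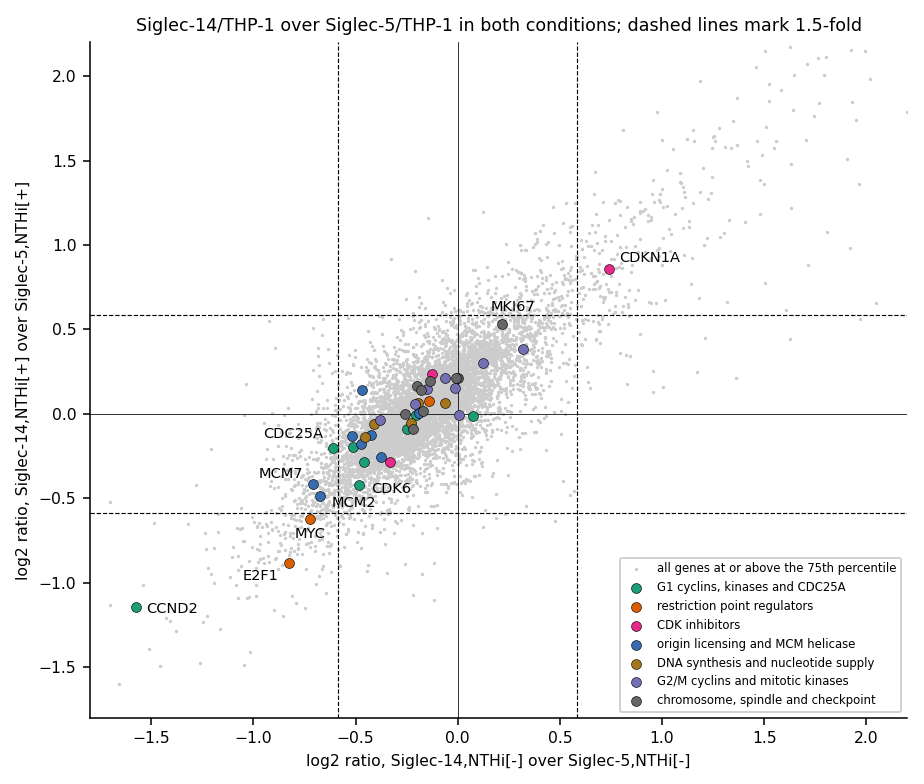
Log2 ratio of Siglec-14/THP-1 over Siglec-5/THP-1 without NTHi (horizontal) and with NTHi (vertical), which share no array; coloured points are the 44 genes by role, grey points the 7861 genes above the 75th percentile (53 of them outside the axes), and dashed lines mark 1.5-fold. CCND2 lies lowest at -1.57 and -1.14, E2F1 and MYC lie in the same corner, and CDKN1A lies in the opposite one at 0.74 and 0.86.

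In the fit, 6 of 44 genes were lower in Siglec-14/THP-1 at an adjusted p under 0.05 and 1 was higher, while 5.94% of all genes passed downward and 7.29% upward. At an unadjusted p under 0.05 were 15 of 44, beside 24.6% of all genes. Of the 7861 brighter genes, 601 passed downward and 513 upward, and 2027 had an unadjusted p under 0.05. The 6 lower genes of the list were CCND2, MYC, E2F1, MCM2, MCM7 and CDK6, and the one higher was CDKN1A. The numbers depended on the scaling: arrays set to a common median gave 16 lower and 2 higher, to a common trimmed mean 15 and 3, and quantile normalization 14 and 5. The shares of all genes moved as well, to 18.7% lower and 8.57% higher, 13.1% and 13.5%, and 11.2% and 11.2%. The 7 genes were among those called under each scaling. Without the trend of variance with signal, 1 gene, CCND2, passed as lower and 0 as higher, beside 1.04% lower and 4.01% higher of all genes.

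Cyclin D2 (CCND2), a partner of CDK4 and CDK6, differed most. Its signals were 280, 272, 835 and 600, so that both Siglec-14/THP-1 arrays lay under both Siglec-5/THP-1 arrays. It was 2.98-fold lower in Siglec-14/THP-1 without NTHi and 2.21-fold lower with it, and its line term was -1.36 (SE 0.16, limma adjusted p = 1.0e-15). A second probe set above the floor, at 39.6, 28.9, 64.2 and 56.1, gave a line term of -0.83 with an adjusted p of 0.0280. The kinase CDK6 had 1953, 2160, 2730 and 2899, and a line term of -0.45 (adjusted p = 0.0428). Its next brightest probe sets gave -0.43 and -0.42 with adjusted p of 0.0620 and 0.0572. Of the 6 CDK6 probe sets above the floor, 1 passed. Its relative CDK4 had signals of 1625, 1854, 2236 and 2258, with a line term of -0.37 that did not pass (adjusted p = 0.120). CDC25A, the phosphatase that activates CDK2, had 379, 407, 578 and 468 and was 1.53-fold lower in Siglec-14/THP-1 without NTHi and 1.15-fold lower with it. Of the 8 measured cyclins, kinases and CDC25A of G1, 7 lay below the median of all genes without NTHi and 8 with it, and CCND3 was the 1 above it.

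The transcription factor MYC had signals of 1250, 1249, 2065 and 1921, and again both arrays of Siglec-14/THP-1 lay below both of Siglec-5/THP-1. It was 1.65-fold lower without NTHi and 1.54-fold lower with it, with a line term of -0.67 (adjusted p = 4.37e-04). E2F1, the E2F that activates S-phase genes and its own promoter, had 46.8, 46.7, 83.0 and 86.0, a 1.77-fold and a 1.84-fold difference and a line term of -0.85 (SE 0.23, adjusted p = 3.58e-03). The second E2F1 probe set, at 49.2, 60.4, 52.4 and 61.5, showed no such split, with a line term of -0.06 (adjusted p = 0.944). The E2F1 result therefore rests on 1 of 2 dim probe sets. RB1 was even at 1427, 1402, 1572 and 1331.

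Among the CDK inhibitors, CDKN1A, which encodes p21, was the 1 gene of the list at least 1.5-fold higher in Siglec-14/THP-1. Its signals were 522, 535, 312 and 296, higher on both Siglec-14/THP-1 arrays, by 1.67-fold without and 1.81-fold with NTHi, with a line term of 0.80 (SE 0.16, adjusted p = 1.87e-05). CDKN1B, p27, had 1351, 1656, 1473 and 1404, so that its high value was in Siglec-14,NTHi[+]. CDKN2D, an inhibitor of CDK4 and CDK6, had 107, 97.8, 135 and 119, lower on both Siglec-14/THP-1 arrays by 1.26-fold and 1.22-fold. The 3 inhibitors measured had 3 patterns, and 1 of them passed the fit.

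The genes that license replication origins lay to one side of the array. All 8 had lower signals in Siglec-14/THP-1 than in Siglec-5/THP-1 without NTHi, with log2 ratios from -0.71 to -0.19, and all 8 lay below the median of all genes there. With NTHi, 7 of 8 lay below it, MCM5 being the exception, and the ratios ran from -0.49 to 0.14. MCM2, a subunit of the MCM helicase, had signals of 1416, 1507, 2259 and 2109, with a line term of -0.58 (adjusted p = 3.99e-03). MCM7, another subunit, had 1690, 1868, 2758 and 2490, with a line term of -0.56 (adjusted p = 6.50e-03), and its second probe set gave -0.40 (adjusted p = 0.0849). Both genes had their Siglec-14/THP-1 arrays below their Siglec-5/THP-1 arrays. MCM3, MCM4 and MCM6 lay on the same side in both conditions with line terms of -0.28, -0.33 and -0.32 that did not pass, although a second probe set of MCM6 and 2 of MCM4 did. CDC6, the loader of the helicase, was nearly level at 392, 436, 446 and 434.

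The medians of the roles that act later in the cycle lay nearer to that of all genes. Relative to the median of all genes, the role medians without and with NTHi were -0.34 and -0.26 for the G1 cyclins and kinases, -0.60 and -0.68 for RB1, E2F1 and MYC, 0.0036 and 0.18 for the CDK inhibitors, -0.34 and -0.21 for licensing, and -0.10 and -0.11 for DNA synthesis. They were 0.09 and 0.09 for the G2/M cyclins and mitotic kinases and -0.04 and 0.11 for the chromosome, spindle and checkpoint genes. None of the 5 genes of DNA synthesis, the 8 of G2/M or the 9 of the chromosome and spindle passed either term of the fit as deposited. TYMS, which makes thymidylate, had 5122, 5803, 6809 and 6058, and AURKA, a spindle kinase, stood at 1608, 1620, 1603 and 1628. MKI67 lay higher in Siglec-14/THP-1, by 1.16-fold without and 1.45-fold with NTHi (line term 0.37, adjusted p = 0.124), on all 4 of its probe sets in direction. Under scaling, some of these later genes passed the line term: PCNA and TYMS as lower and MKI67 as higher under all 3 scalings, CCNA2 as lower under the median and trimmed-mean scalings, CDC25C as higher under the trimmed-mean and quantile scalings, and KIF11 and TTK as higher after quantile normalization. These medians are descriptions over genes of 1 pair of arrays each, and differences between roles were not tested.

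**Figure D4:**
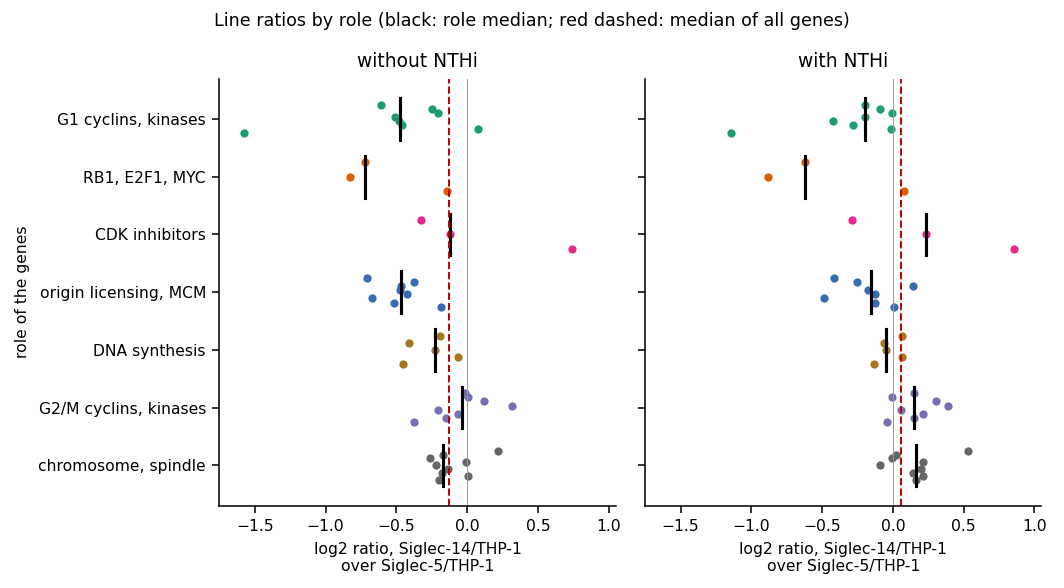
Log2 ratio of Siglec-14/THP-1 over Siglec-5/THP-1 (horizontal) for each of the 44 genes in rows by role, without NTHi (left) and with NTHi (right); black bars are role medians and the red dashed line is the median of all genes, -0.13 on the left and 0.06 on the right. Licensing genes lie left of the red line in 8 of 8 cases without NTHi, and the mitotic roles spread around it.

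The promoters of these roles carry different letters. In RefSeq promoter windows of 300 bases (250 before to 50 after a gene's start, GRCh38.p14), 36 of the 46 genes had at least 1 window. Windows were searched on both strands for an E2F site (TTTCCCGC, TTTCGCGC, TTTGCCGC or TTTGGCGC), for the cell cycle homology region CHR (TTTGAA), an element of G2/M promoters, and for a CCAAT box (CCAAT). The E2F letters were found in 6 of 6 licensing genes with a window (CDC6, CDT1, MCM2, MCM3, MCM6 and MCM7), in 2 of 5 genes of DNA synthesis (PCNA and TYMS) and in CDC25A and E2F1, and in 3.99% of all 27305 genes of the table. Of the 14 genes of the G2/M and the chromosome and spindle roles that had a window, 1 held them (CDK1), and 10 held the CHR letters, beside 18.2% of all genes. The CCAAT box was in 27 of 36 genes, and in 39.7% of all genes. The list was not chosen by these letters, and a match is a description, not a binding site. Below are the 250 bases before the start of 3 genes that were at least 1.5-fold lower in Siglec-14/THP-1 without NTHi, with the E2F letters in capitals, and of 3 mitotic genes that were not, with the CHR letters in capitals. MCM7 is at chr7:100101398-100101647, CDC25A at chr3:48188418-48188667 and E2F1 at chr20:33686386-33686635, all on the minus strand. CCNB2, a mitotic cyclin, is at chr15:59104896-59105145 on the plus strand, TOP2A at chr17:40417897-40418146 on the minus strand and KIF11, a spindle motor, at chr10:92592880-92593129 on the plus strand.
MCM7: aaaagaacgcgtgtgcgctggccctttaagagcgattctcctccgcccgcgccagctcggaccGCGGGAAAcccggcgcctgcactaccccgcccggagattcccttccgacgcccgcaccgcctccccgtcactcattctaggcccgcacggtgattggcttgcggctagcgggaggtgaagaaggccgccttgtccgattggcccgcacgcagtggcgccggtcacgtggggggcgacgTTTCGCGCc
CDC25A: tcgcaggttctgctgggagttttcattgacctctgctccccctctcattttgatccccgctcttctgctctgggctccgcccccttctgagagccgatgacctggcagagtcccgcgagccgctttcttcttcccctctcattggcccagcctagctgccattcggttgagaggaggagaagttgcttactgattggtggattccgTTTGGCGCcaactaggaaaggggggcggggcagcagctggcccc
E2F1: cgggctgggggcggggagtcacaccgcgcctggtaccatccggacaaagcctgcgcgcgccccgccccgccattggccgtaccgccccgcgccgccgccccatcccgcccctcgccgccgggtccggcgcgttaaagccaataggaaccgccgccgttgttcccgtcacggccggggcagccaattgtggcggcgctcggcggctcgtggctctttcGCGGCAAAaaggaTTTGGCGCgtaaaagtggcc
CCNB2: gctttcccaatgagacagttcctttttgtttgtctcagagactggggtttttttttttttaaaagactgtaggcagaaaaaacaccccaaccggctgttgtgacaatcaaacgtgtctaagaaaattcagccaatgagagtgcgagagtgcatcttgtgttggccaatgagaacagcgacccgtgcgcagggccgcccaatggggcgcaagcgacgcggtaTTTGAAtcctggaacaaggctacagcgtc
TOP2A: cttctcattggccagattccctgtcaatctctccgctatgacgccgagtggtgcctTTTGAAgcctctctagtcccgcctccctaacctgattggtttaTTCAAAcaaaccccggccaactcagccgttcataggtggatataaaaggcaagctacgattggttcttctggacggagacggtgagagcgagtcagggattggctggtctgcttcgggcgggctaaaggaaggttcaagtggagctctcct
KIF11: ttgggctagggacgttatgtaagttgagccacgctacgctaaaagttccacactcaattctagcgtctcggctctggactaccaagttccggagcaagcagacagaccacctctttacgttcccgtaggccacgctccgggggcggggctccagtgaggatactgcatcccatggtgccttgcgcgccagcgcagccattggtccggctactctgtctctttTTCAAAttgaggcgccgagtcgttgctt

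The E2F letters began 44 bases before the start in CDC25A, 33 and 20 in E2F1 and 187 and 9 in MCM7. The CHR letters began 29 bases before the start in CCNB2 and 28 in KIF11, but 194 and 151 in TOP2A. The 6 genes were picked for their line ratios and together with the letters to be shown, so the contrast between them was fixed by that choice. MCM7 has 3 windows, and the one printed was chosen for holding the most E2F letters. Over all 11 members with the E2F letters, the log2 ratios between the lines without NTHi ran from -0.83 (E2F1) to -0.19 (CDC6) with a median of -0.45, and over the 11 with the CHR letters from -0.26 (CDC20) to 0.32 (CDC25C) with a median of -0.06. CDK1 holds both. With NTHi the medians were -0.14 and 0.20. Measured members with a window but neither set of letters ran from -0.51 (CCNE1) to 0.74 (CDKN1A) without NTHi. CDK4 and CDK6 were among them at -0.46 and -0.48. CCND2 and MYC had no window. Over all genes at the floor, the 663 with the E2F letters had medians of -0.18 and 0.03, and the 1406 with the CHR letters -0.10 and 0.09. These medians are descriptions, and their differences were not tested.

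A further 116 genes of the same processes were read in the same way, 112 with a probe set and 109 at the floor. In the fit, 1 of the 109 passed the NTHi term, as lower, which 0.358% of all genes did. This was MNT, a MAX-binding antagonist of MYC, with signals of 277, 171, 264 and 128, lower with NTHi in both lines (log2 ratios of -0.69 and -1.04, limma adjusted p of the term 8.4e-05). For the line term, 5 of 109 passed as higher in Siglec-14/THP-1 and 7 as lower, near the 7.29% and 5.94% of all genes, and 0 of the 37 genes of mitosis and cytokinesis passed. In the list of other CDK inhibitors and antiproliferative genes, 4 of 11 were higher and 0 lower. These lists were chosen with earlier results of these data known, so the counts are descriptions and were not tested. CDKN1C, the inhibitor p57, had 838, 1038, 171 and 117, with a line term of 2.72 (SE 0.16), the largest line term of any gene named here. BTG1, an antiproliferative gene of resting cells, had 1786, 2328, 646 and 455, and cyclin G2 (CCNG2), an atypical cyclin associated with cell cycle arrest, had 572, 629, 334 and 345. GADD45A, a stress-response gene, had 411, 513, 334 and 287. CDKN2A, the p16 gene, lay near the floor at 23.3, 33.2, 11.0 and 17.6 and did not pass (adjusted p = 0.249).

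Of the MYC partners and antagonists, MXD1, which replaces MYC on MAX in maturing cells, was higher in Siglec-14/THP-1 at 222, 305, 152 and 141 (line term 0.83, adjusted p = 3.57e-05), and MXI1, of the same family, was lower at 272, 262, 460 and 356 (-0.60, adjusted p = 3.63e-03). The line term passed 5.94% of all genes as lower, and the counts by list that follow were not tested against that share. Among the E2F family and its partners, 1 of 15 passed, E2F5, a repressor E2F, which was lower at 86.8, 104, 196 and 169. Of 15 genes of origin firing, MCM10 and GINS2 were lower, and of 24 replication fork genes, UNG, RFC3 and POLE. UNG, which removes uracil from DNA, had 1008, 962, 1600 and 1586. These fork genes had a median of -0.18 without NTHi and -0.20 with it relative to all genes, and the mitosis list 0.07 and 0.11.

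**Figure D5:**
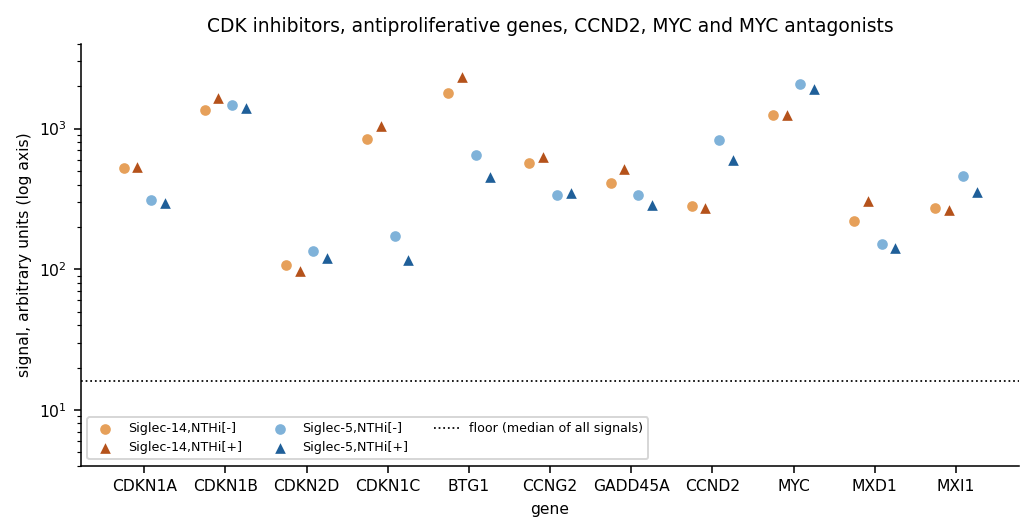
Signals on the 4 arrays (vertical log axis, arbitrary units; circles without NTHi, triangles with it; each point is 1 array) of CDK inhibitors, antiproliferative genes, CCND2, MYC and the MYC antagonists MXD1 and MXI1. CDKN1A, CDKN1C, BTG1, CCNG2, GADD45A and MXD1 are higher on both Siglec-14/THP-1 arrays, CCND2, MYC and MXI1 on both Siglec-5/THP-1 arrays.

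Of the 7 myeloid marker genes that reached the floor, 2 passed the line term, in opposite directions. MPO, the peroxidase of immature myeloid cells, was lower in Siglec-14/THP-1 at 1152, 1365, 2408 and 2186, and the integrin gene ITGAM was higher at 290, 353, 198 and 167. LYZ, CEBPA, PTPRC, SPI1 and CSF1R did not pass, with line terms of -0.09, 0.04, 0.31, 0.15 and 0.61. In the fibroblast and endothelium list, PECAM1 and COL1A1 passed as higher in Siglec-14/THP-1. Their line terms were 1.75 and 0.94 (limma adjusted p of 5.34e-27 and 1.75e-06). DCN, the other gene of that list at the floor, did not pass (-0.38). In the maturation list, the dim integrin gene ITGAX passed as higher in Siglec-14/THP-1 (line term 1.15, limma adjusted p = 0.0428). CD36 did not pass (0.63, adjusted p = 0.0712), and the other measured genes of that list were below the floor and not fitted. The part of such differences in the cell cycle results was not tested.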

How the data were processed

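RNA from 4 cultures of 2 THP-1 sublines was labelled and hybridised to Affymetrix U133 Plus 2.0 arrays, 1 per condition. GeneChip Operating Software was used by the authors to quantify each array (version not given in the sources used here) and they deposited 1 linear signal intensity for each of 54675 probe sets. They describe the signals as standardized on the cumulative signal of all probes, yet the deposited columns differ in sum and median, so the arrays were also compared after scaling. The number of arrays limits the precision. Detection calls were not used here.

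Probe sets were named from the platform annotation, which gave 41097 of them 1 gene and 1801 several, the latter left out. Each gene was read from its probe set with the highest mean signal. A gene was counted when its mean signal reached the median of all signals (16.0), and past the fold at 1.5-fold. The main values used the signals as deposited, with log2 ratios of single arrays and no pseudocount. The additive fit (cell line and NTHi) used limma 3.58.1 in R 4.3.3 (lmFit, eBayes with an intensity trend) on the 26970 probe sets that reached the floor, with Benjamini-Hochberg adjustment over all of them and a threshold of 0.05, and was tested on simulated data. Comparisons that share an array were not set against each other. Alternatives were 3 scalings (common median, common mean after trimming 2% at each end, quantile), 2 filters on low signals, an added floor, the mean over probe sets, 2-fold, no trend, and leaving out the other term.

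The members, roles, other gene lists and markers were chosen with earlier results of these data known. Named with all 4 signals were members at least 1.5-fold different in any comparison, the CDK inhibitors, the D cyclins, MYC, E2F1, RB1, MKI67, TOP2A, PCNA and CDK1, and other cell cycle genes past 1.5-fold in both lines or both conditions. CDK4, CDK6, TYMS, AURKA, CDC6, CCNE1, GADD45A, MXD1, MXI1, MCM10, GINS2, RFC3 and POLE, and the marker genes, were named after their values were seen. Promoter sequences came from RefSeq.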

Additional observations from a re-analysis of the deposited data

How the results depend on the processing

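A median was called stable when it moved by less than the SD of the members' log2 ratios, and a count when it stayed within 1.5 times. Of the members past 1.5-fold, those lower with NTHi in Siglec-5/THP-1 numbered 1 after scaling to a common median or trimmed mean and 0 after quantile normalization, with the mean over probe sets, or at 2-fold. Those lower in Siglec-14/THP-1 than in Siglec-5/THP-1 without NTHi numbered 2 after trimmed-mean scaling or quantile normalization and 1 at 2-fold. At 2-fold, those higher in Siglec-14/THP-1 numbered 0 without NTHi, 0 with NTHi and 0 in both conditions, and those lower 1 with NTHi and 1 in both conditions (CCND2). Without a filter, 2 were higher with NTHi (CCND1 was added), and with the mean over probe sets 1, CCND2, was higher with NTHi in Siglec-14/THP-1, where a probe set near the floor enters the mean. The median of the members with NTHi in Siglec-14/THP-1 turned from 0.10 to -0.0082 after quantile normalization, which brought the median of all genes from 0.08 to -0.0037 as well. In the fit, the NTHi term passed 1 lower gene after median scaling (CDT1), 2 after trimmed-mean scaling (CDT1 and MAD2L1) and 1 after quantile normalization (MAD2L1). The shares of all genes passing as lower were 0.554%, 0.872% and 0.367%. The line term passed 2, 3 and 5 higher and 16, 15 and 14 lower genes under the same 3 scalings. Without the intensity trend it passed 0 higher and 1 lower. The shares of all genes under these settings are given with the fit above. E2F1 and CDK6 missed the threshold with the mean over probe sets, at line terms of -0.46 and -0.38, and CDK6 also missed it without the filter on low signals. With cell line left out of the fit, 0 of all genes passed the NTHi term. Single-array ratios are least certain for dim genes such as CCND1, E2F1 and PLK1. CCND1 lies near the signal floor, while E2F1 and PLK1 lie above it, with mean signals of 65.6 and 87.1.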
